A study of Mus musculus with 6 samples.

Results

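Expression of the sestrins, of REDD1 and of the folliculin complex was read in B16F10, a mouse melanoma cell line. The genes were 7 listed symbols, SESN1, SESN2, SESN3, DDIT4 (which encodes REDD1), FLCN, FNIP1 and FNIP2, and all 7 of them stood in the table of 14915 gene symbols. RNA-seq had been made from 3 wild-type (WT) libraries and from 3 libraries of the ZBTB5-S127A genotype, in which a serine of the zinc finger and BTB domain factor ZBTB5 that can be phosphorylated is replaced by alanine. All 6 libraries shared the same stated line and the same treatment, the inflammatory cytokine TNFα while amino acids were limited. No untreated or amino acid-fed library was analysed here, and differences below set treated S127A against treated WT libraries. The sources used here do not give the dose, the time or whether the S127A line is 1 clone or a pool. Nor do the labels say that replicates were separate cultures, so the spread behind each p-value is that of these samples and may be technical. The study's stated question was how loss of this phosphorylation bears on mTORC1 where inflammation activates it.

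mTORC1 is the kinase complex that drives growth when amino acids, energy and growth factors are in supply, and it is switched on at the lysosome by the Rag GTPases and by Rheb. Sestrins are stress-induced proteins that can bind GATOR2 and so keep the Rag route off, and REDD1 holds Rheb off through the TSC complex. Folliculin (FLCN) works with either of its partners FNIP1 or FNIP2 as the GTPase-activating complex of RagC and RagD, a step that lets mTORC1 phosphorylate the MiT/TFE transcription factors of lysosome biogenesis and, in melanocytes, of pigmentation. Sestrins and REDD1 are thus known as brakes on mTORC1, and the folliculin complex as a relay of amino acid supply.

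Values are TPM, transcript abundance normalised for gene length and library total, and means carry their SD over n = 3 libraries a group. Differences are of log2(TPM + 1), S127A minus WT, with a standard error (SE) and a Benjamini-Hochberg adjusted p from limma, fitted and adjusted over the 10348 genes with a mean of at least 1 TPM. A gene was called changed at an adjusted p under 0.05. The libraries labelled S127A stood far apart from WT: r across tested genes was 0.998 within each group and 0.676 to 0.679 between groups, and 90.0% of tested genes were called, 49.8% lower and 40.2% higher. ZBTB5 ranged from 14.9 to 15.9 TPM in WT libraries and from 8.24 to 9.24 TPM in S127A libraries, and its TPM does not show the substitution. The melanoma label held for WT and not for S127A by defining markers. The 15 melanocyte markers summed to 15990 to 16303 TPM in WT and 30.2 to 35.2 TPM in S127A. Of 13 tested, 13 were lower, and EDNRB and KIT were under 1 TPM in all 6 libraries. Fibroblast markers summed to 66.9 to 67.7 TPM in WT and 298 to 310 TPM in S127A, immune markers to 7.35 to 8.54 and 49.0 to 53.4 TPM, epithelial markers to 0.08 to 0.47 and 62.9 to 63.9 TPM, and endothelial markers to 1.05 to 1.68 and 0.35 to 0.42 TPM. Most of each higher sum was 1 gene: COL1A2 (1.41 to 274.7 TPM), CD14 (0 to 45.1 TPM) and KRT18 (0.09 to 62.8 TPM), as means of WT and S127A. Of 6 fibroblast markers tested 4 were higher, while FBLN1 (50.6 to 0.127 TPM) and POSTN (7.79 to 0.0667 TPM) fell, as did the immune marker CD68 (7.64 to 4.69 TPM). The leukocyte marker PTPRC, the endothelial markers CDH5 and PECAM1 and the epithelial marker CDH1 were under 1 TPM in all 6 libraries. Every S127A library differs from WT in genotype and in these markers at once, so their parts in the results below cannot be told apart. Whether the libraries of both labels come from the same line was not tested. In bulk RNA, fewer cells of a type also cannot be told apart from less RNA per cell.

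All 7 genes passed the filter and all 7 were called, 6 of them lower in S127A and SESN2 alone higher. Being called says little here, since 90.0% of all tested genes were. The 3 values of one group lay entirely above the 3 of the other for each of the 7 genes, as they did for 90.2% of tested genes. A fall of at least 2-fold on the log2(TPM + 1) scale was seen for 5 of the 7 genes (SESN1, SESN3, DDIT4, FLCN and FNIP2) and for 19.9% of tested genes. FNIP2, at −1.03, was just past that fold, and fell short of it with a common total (−0.98), quantile normalization (−0.95), TMM factors (−0.92) and a pseudocount of 5 (−0.87), which leaves 4 genes. The median difference of the 7 genes was −1.59, beside −0.12 for all tested genes.

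**Figure D1:**
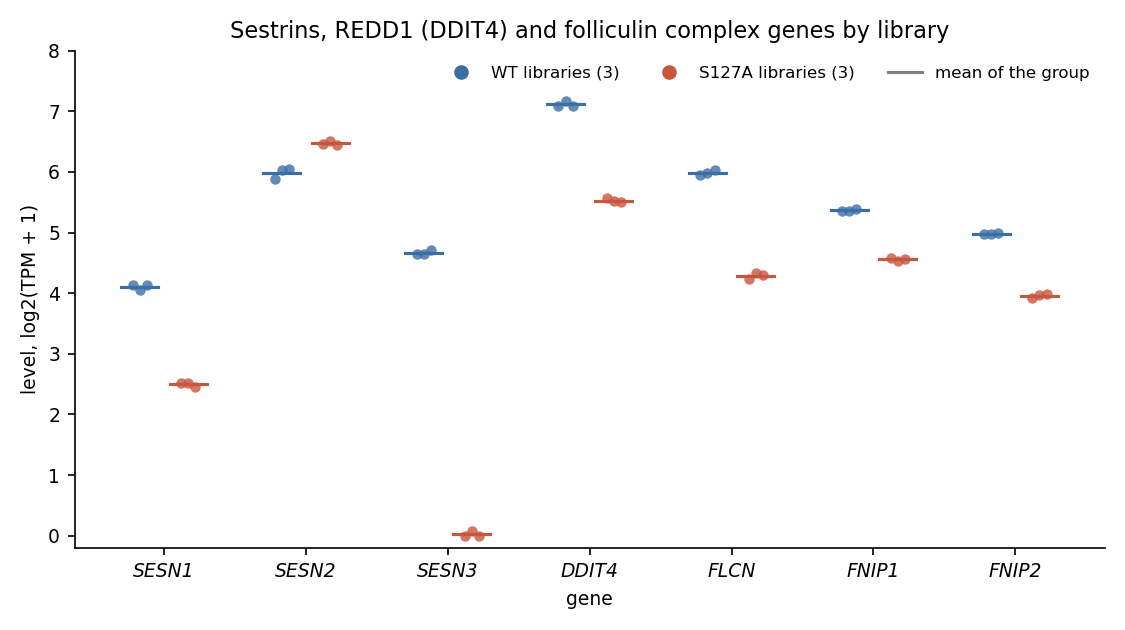
Level of each of the 7 genes on the log2(TPM + 1) scale (vertical axis) in the 3 WT libraries (blue points) and the 3 S127A libraries (red points), with a horizontal line at each group mean. SESN2 is the 1 gene whose red points lie above the blue ones, and SESN3 sits at or near 0 in all 3 S127A libraries.

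Order of the levels differed between the groups, read per length in TPM. In WT, DDIT4 was the most abundant at 138 TPM, followed by FLCN (62.5 TPM), SESN2 (62.3 TPM), FNIP1 (40.4 TPM), FNIP2 (30.7 TPM), SESN3 (24.4 TPM) and SESN1 (16.3 TPM). FLCN and SESN2 overlapped in WT, and no other neighbours in that order did. In S127A, SESN2 led at 87.9 TPM, followed by DDIT4 (45.2 TPM), FNIP1 (22.7 TPM), FLCN (18.6 TPM), FNIP2 (14.5 TPM), SESN1 (4.66 TPM) and SESN3, with no overlap between neighbours. SESN2, level with FLCN in WT, thus stood first in S127A, while FLCN stood below DDIT4 and FNIP1. The ratio of SESN2 to DDIT4, the 2 stress-induced brakes with the highest levels, was 0.452 ± 0.0245 in WT and 1.94 ± 0.0786 in S127A.

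Among the sestrins, SESN1 and SESN3 were lower and SESN2 higher in S127A, and SESN3 was nearly lost. SESN1 is known as a p53 and FOXO target, SESN2 as a target of p53 and of the amino acid response factor ATF4, and SESN3 as a FOXO target. Their genes lie on 3 mouse chromosomes (mm10, GENCODE M21): Sesn1 (ENSMUSG00000038332.13) on chromosome 10 from 41809935 to 41908424 on the plus strand, Sesn2 (ENSMUSG00000028893.8) on chromosome 4 from 132492032 to 132510501 on the minus strand, and Sesn3 (ENSMUSG00000032009.8) on chromosome 9 from 14275067 to 14333101 on the plus strand. Sequence before a RefSeq start site (GRCm38.p6) is shown for the 3 paralogues because they moved in opposite directions, without any bases that GENCODE M21 places in an exon, 5′ to 3′ on the gene's strand. Capitals mark a p53 partial site of 10 bases, which is a part of a p53 element and not a whole one. It was the 1 searched motif found in these stretches:
SESN1, chr10:41887189-41887438: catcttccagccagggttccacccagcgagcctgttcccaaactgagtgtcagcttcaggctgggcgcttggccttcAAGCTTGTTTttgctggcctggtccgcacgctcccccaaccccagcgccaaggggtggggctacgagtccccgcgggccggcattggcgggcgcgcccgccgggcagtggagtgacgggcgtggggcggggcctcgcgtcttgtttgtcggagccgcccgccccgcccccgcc
SESN2, chr4:132510502-132510706: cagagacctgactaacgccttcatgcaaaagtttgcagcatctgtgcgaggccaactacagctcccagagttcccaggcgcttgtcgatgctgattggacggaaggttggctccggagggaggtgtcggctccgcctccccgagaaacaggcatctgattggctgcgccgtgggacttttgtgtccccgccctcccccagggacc
SESN3, chr9:14276051-14276300: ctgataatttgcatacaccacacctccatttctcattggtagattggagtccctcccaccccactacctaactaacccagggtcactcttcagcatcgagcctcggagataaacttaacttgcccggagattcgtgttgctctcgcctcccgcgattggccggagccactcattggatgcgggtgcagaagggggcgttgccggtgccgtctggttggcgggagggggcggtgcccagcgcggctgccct
The SESN1 stretch ends at the start of the shorter of its coding transcripts, and the window at the other start lies within an exon and is not shown. The SESN3 stretch precedes the RefSeq start and lies inside the gene as GENCODE M21 draws it, in an intron of its longer transcripts. Each of the 8 RefSeq windows of the 7 genes, 250 bases before a start, was searched on both strands for 8 motifs. The E-box CACGTG of MITF and TFE factors and the hypoxia core ACGTG, which also lies inside it, are given with FNIP1 and DDIT4. The p53 partial site was in 1 of the 8 windows and in 7.13% of the 32851 RefSeq windows. The remaining motifs were in none of the 8. Among all windows, 12.3% held the second E-box CATGTG, 3.45% the ATF4 element TGATGNAA, 3.17% the FOXO element GTAAACA, 6.75% the AP-1 site TGANTCA and 7.25% the NF-kB element. A match is a description of letters and not a binding site.

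SESN3 stood at 23.98, 23.98 and 25.21 TPM in the WT libraries and was listed at 0, 0.06 and 0 TPM in the S127A libraries. The groups did not overlap, and all 3 S127A libraries lay at the bottom of the measured range. The difference was −4.64 on the log2(TPM + 1) scale (SE 0.0661, adjusted p = 2.21e-13 by limma), and 186 of 10348 tested genes had a lower one. Its size rests on the pseudocount, being −7.71 with 0.1 and −2.55 with 5. SESN1 was at 16.61, 15.58 and 16.67 TPM in WT and at 4.73, 4.76 and 4.49 TPM in S127A. Every S127A library thus held less than a WT library, with 28.6% of the WT mean left and a difference of −1.61 (SE 0.0588, adjusted p = 3.95e-10 by limma).

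SESN2 was at 57.89, 64.16 and 64.90 TPM in WT and at 86.71, 90.28 and 86.56 TPM in S127A. WT replicate 1 was the lowest of the WT libraries, and the lowest S127A library still lay above the highest WT one. SESN2 was 1.41-fold higher in S127A by mean TPM, with a difference of 0.49 on the log2(TPM + 1) scale (SE 0.0465, adjusted p = 1.58e-06 by limma). This was the smallest difference of the 7 genes, and 2826 tested genes had a higher one.

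The make-up of sestrin transcripts therefore shifted, and their sum was lower by a size that depended on the scaling. Summed sestrin TPM was 98.48, 103.72 and 106.78 in WT and 91.44, 95.10 and 91.05 in S127A, a mean of 103 ± 4.2 against 92.5 ± 2.23. The groups did not overlap in this sum, and the gap of −10.5 TPM gave p = 0.1 by the exact permutation test. By the same exact permutation test it shrank to −6.77 TPM with a common total (p = 0.2) and to −2.26 TPM with TMM factors (p = 0.6). The gap thus depends on the scaling between libraries. The shares do not. SESN2 made up 60.5% ± 1.56 of the sum in WT and 94.9% ± 0.121 in S127A, SESN3 23.7% ± 0.619 and 0.021% ± 0.0364, and SESN1 15.8% ± 0.942 and 5.04% ± 0.124. Each of these 3 shares gave p = 0.1 by a two-sided exact permutation test, the smallest value that 3 against 3 allows, with no overlap between the groups.

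**Figure D2:**
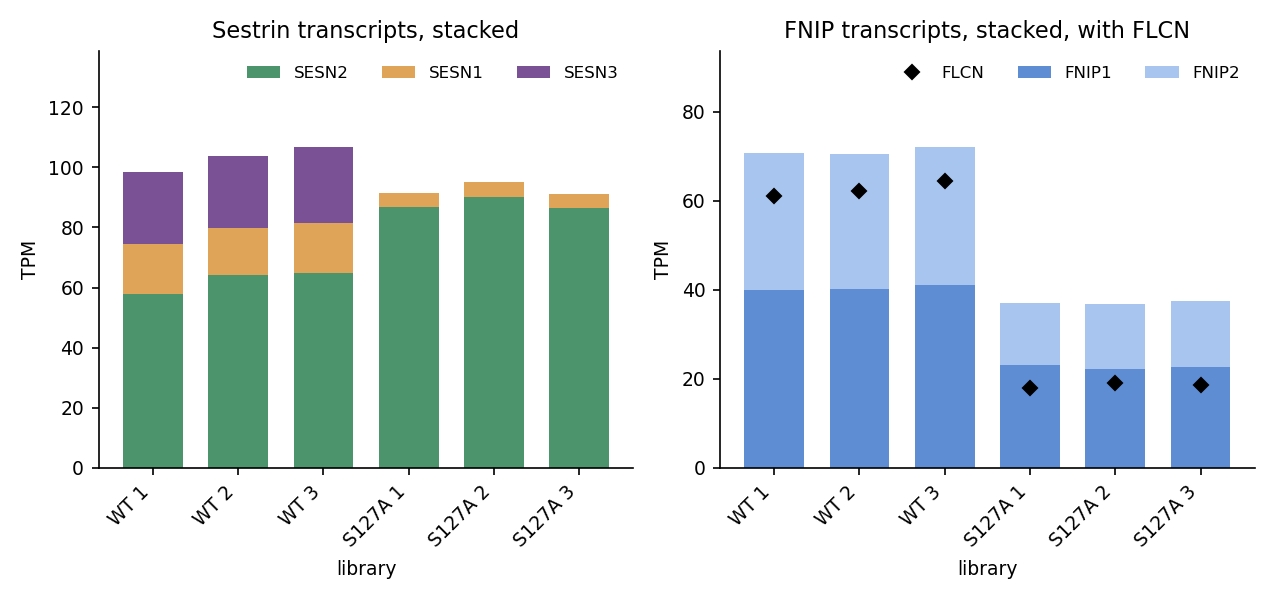
TPM in each library, WT 1 to 3 and S127A 1 to 3 (horizontal axis). Left, SESN2, SESN1 and SESN3 stacked: the bars have similar heights, and SESN2 fills 94.9% of them in S127A against 60.5% in WT. Right, FNIP1 and FNIP2 stacked, with FLCN as black diamonds: both are lower in S127A, and the diamonds fall further down the bars.

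Partners of the sestrins were read from a list, beside 40.2% higher and 49.8% lower over all tested genes. GATOR2, the complex that sestrins bind, had 2 of 5 subunits higher, 1 lower and 2 that did not pass, with a median difference of 0.10. WDR24 rose from 15.8 ± 0.385 to 19.3 ± 0.321 TPM and SEH1L, which also serves in the nuclear pore, from 73.3 ± 1.85 to 83.5 ± 4.83 TPM. SEC13, shared with the nuclear pore and with COPII vesicle coats, fell from 278 ± 2.78 to 158 ± 4.97 TPM. MIOS (difference 0.10, adjusted p = 0.0696 by limma) did not pass, but was called higher without S127A replicate 3, with a common total, after quantile normalization and with TMM factors (adjusted p = 0.00126). WDR59 (difference −0.11, adjusted p = 0.147 by limma) did not pass. Of GATOR1, its KICSTOR anchor and the arginine and S-adenosylmethionine sensors, 7 of 10 genes were listed and tested, 4 lower and 1 higher. With TMM factors, quantile normalization or a common total, 3 were higher and 4 lower. The 3 GATOR1 subunits, which switch RagA and RagB off, were all among the lower: DEPDC5 fell from 18.7 ± 0.851 to 11.9 ± 0.226 TPM, NPRL2 from 20.9 ± 0.357 to 12.4 ± 1.71 TPM and NPRL3 from 20.3 ± 1.01 to 15.5 ± 1.39 TPM. The KICSTOR subunit C12orf66 rose from 6.92 ± 0.5 to 15.4 ± 0.267 TPM.

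DDIT4, the gene of REDD1, was about 3-fold lower in S127A. It was at 134.97, 142.50 and 135.84 TPM in the WT libraries and at 46.56, 44.72 and 44.32 TPM in S127A. The WT libraries all stood above 130 TPM and the S127A libraries all below 50 TPM. Mean TPM was 3.05-fold lower in S127A, and the difference was −1.59 on the log2(TPM + 1) scale (SE 0.0367, adjusted p = 8.65e-12 by limma). Ddit4 (ENSMUSG00000020108.4) lies on chromosome 10 from 59949669 to 59951834 on the minus strand (mm10), with 1 annotated transcript of 3 exons. It is a known target of hypoxia-inducible factors, p53, ATF4 and the glucocorticoid receptor, and its stretch before the first exon (RefSeq, GRCm38.p6) is shown for the hypoxia core in capitals:
DDIT4, chr10:59951835-59952020: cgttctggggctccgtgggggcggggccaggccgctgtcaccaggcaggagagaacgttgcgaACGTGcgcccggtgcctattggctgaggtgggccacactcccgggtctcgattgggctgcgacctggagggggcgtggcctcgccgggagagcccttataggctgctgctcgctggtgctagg
This core was in 2 of the 8 windows and in 16.6% of all RefSeq windows.

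Of 13 genes of the REDD1 route, 6 were higher and 7 lower, beside 40.2% and 49.8% of all tested genes. The median difference of the route was −0.15, close to the −0.12 of all tested genes. Its paralogue DDIT4L (REDD2) was at 5.79, 5.56 and 5.98 TPM in WT and was listed at 0, 0.04 and 0 TPM in S127A, so that neither gene of the REDD pair kept its WT level. The TSC complex, through which REDD1 acts on Rheb, was lower: TSC1 lay between 20.29 and 21.48 TPM in WT and between 14.09 and 15.04 TPM in S127A, TBC1D7 from 23.1 ± 1.08 to 14.3 ± 0.889 TPM and TSC2 from 44.9 ± 0.269 to 38.7 ± 1.43 TPM. The call of TSC2 was lost with TMM factors (adjusted p = 0.0584 by limma). RHEB, the GTPase that this complex switches off, rose from 129 ± 4.14 to 153 ± 4.78 TPM.

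TXNIP, a thioredoxin-binding protein that also binds REDD1, had the largest difference of this list and rose from 78.7 ± 2.59 to 577 ± 5.31 TPM. Among ligase genes reported to turn REDD1 protein over, CUL4A rose from 72.3 ± 1.8 to 85.6 ± 2.02 TPM, DDB1 from 396 ± 6.71 to 468 ± 7.12 TPM and HUWE1 from 58.4 ± 1.72 to 90.8 ± 3.43 TPM, while the kinase GSK3B fell from 65.3 ± 2.69 to 44.5 ± 0.568 TPM. The substrate receptor BTRC passed narrowly (difference −0.15, adjusted p = 0.0386 by limma). It lost its call under 10 of 18 alternatives, among them leaving out any 1 of the 3 S127A libraries or WT replicate 2 or 3. The 14-3-3 genes, whose proteins bind TSC2, split, with YWHAE down from 928 ± 39.6 to 490 ± 18.1 TPM and YWHAZ up from 391 ± 7.12 to 504 ± 10.3 TPM.

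All 3 genes of the folliculin complex were lower in S127A, FLCN by more than its partners. FLCN was at 60.95, 62.14 and 64.33 TPM in WT and at 17.90, 19.13 and 18.68 TPM in S127A. The 3 libraries of each group stayed close together, and 29.7% of the WT mean was left in S127A (difference −1.70, SE 0.0435, adjusted p = 1.98e-11 by limma). FNIP1 was at 39.98, 40.14 and 41.03 TPM in WT and at 23.06, 22.18 and 22.73 TPM in S127A. It kept 56.1% of its WT mean, the most of the 6 lower genes (difference −0.81, SE 0.0408, adjusted p = 6.41e-09 by limma). FNIP2 was at 30.62, 30.38 and 31.02 TPM in WT and at 14.07, 14.65 and 14.77 TPM in S127A. Again the groups were well apart, with 47.3% of the WT mean left (difference −1.03, SE 0.0454, adjusted p = 1.97e-09 by limma).

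Balance within the complex was read from ratios that no scaling between libraries can change. FLCN per unit of summed FNIP1 and FNIP2 TPM was 0.863, 0.881 and 0.893 in WT and 0.482, 0.519 and 0.498 in S127A. All S127A ratios lay below all WT ratios (p = 0.1 by a two-sided exact permutation test, the smallest possible). FNIP1 made up 56.8% ± 0.176 of the FNIP sum in WT and 61.0% ± 0.994 in S127A (p = 0.1 by the same exact permutation test), a shift of 4.15 percentage points with no overlap. The FNIP sum itself was 71.1 ± 0.861 TPM in WT and 37.2 ± 0.336 TPM in S127A.

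Flcn (ENSMUSG00000032633.12) lies on chromosome 11 from 59791408 to 59810016 on the minus strand, Fnip1 (ENSMUSG00000035992.15) on the same chromosome from 54438199 to 54518235 on the plus strand, and Fnip2 (ENSMUSG00000061175.11) on chromosome 3 from 79455974 to 79567796 on the minus strand (mm10). No exon of the 7 genes shares bases with an exon of another annotated gene. FNIP1 is shown (RefSeq, GRCm38.p6) because its window was the 1 of 8 that held the E-box CACGTG, in capitals, found in 6.02% of all RefSeq windows:
FNIP1, chr11:54437929-54438178: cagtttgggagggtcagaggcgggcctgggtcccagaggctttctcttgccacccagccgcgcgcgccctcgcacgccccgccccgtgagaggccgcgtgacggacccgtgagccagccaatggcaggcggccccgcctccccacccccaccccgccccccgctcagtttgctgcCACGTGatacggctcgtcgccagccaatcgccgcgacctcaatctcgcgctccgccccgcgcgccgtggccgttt
Its hypoxia core match is the same letters, since ACGTG lies inside CACGTG.

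The Rag GTPases, the Ragulator that anchors them and the MiT/TFE factors were mostly lower, with 10 of 12 tested genes lower, 2 higher and a median difference of −0.97. Of all tested genes, 49.8% were lower and 40.2% higher. RRAGC and RRAGD, the GTPases on which FLCN acts, fell from 125 ± 4.91 to 62.6 ± 2.84 TPM and from 21.4 ± 0.481 to 0.05 ± 0.05 TPM. RRAGA fell from 108 ± 4.09 to 61.9 ± 0.491 TPM, and RRAGB was at 1.96 to 3.07 TPM in WT and at 0.05, 0 and 0 TPM in S127A. Of the Ragulator genes, LAMTOR1 fell from 221 ± 7.2 to 88.5 ± 2.18 TPM, LAMTOR2 from 231 ± 9.35 to 112 ± 10.9 TPM and LAMTOR4 from 52.0 ± 2.83 to 31.5 ± 2.17 TPM. LAMTOR3 rose from 98.9 ± 2.41 to 116 ± 2.3 TPM and LAMTOR5 from 94.8 ± 1.66 to 122 ± 7.38 TPM. MITF, the melanocyte member of the MiT/TFE family, fell from 143 ± 9.67 to 8.17 ± 0.487 TPM, TFEB from 12.2 ± 1.19 to 5.81 ± 0.926 TPM and TFE3 from 59.4 ± 0.518 to 42.6 ± 1.6 TPM. TFEC was at 0.13 TPM or less in all 6 libraries and was not tested. The summed melanocyte markers, MITF among them, moved with this list, and their part in it cannot be told apart from that of genotype.

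**Figure D3:**
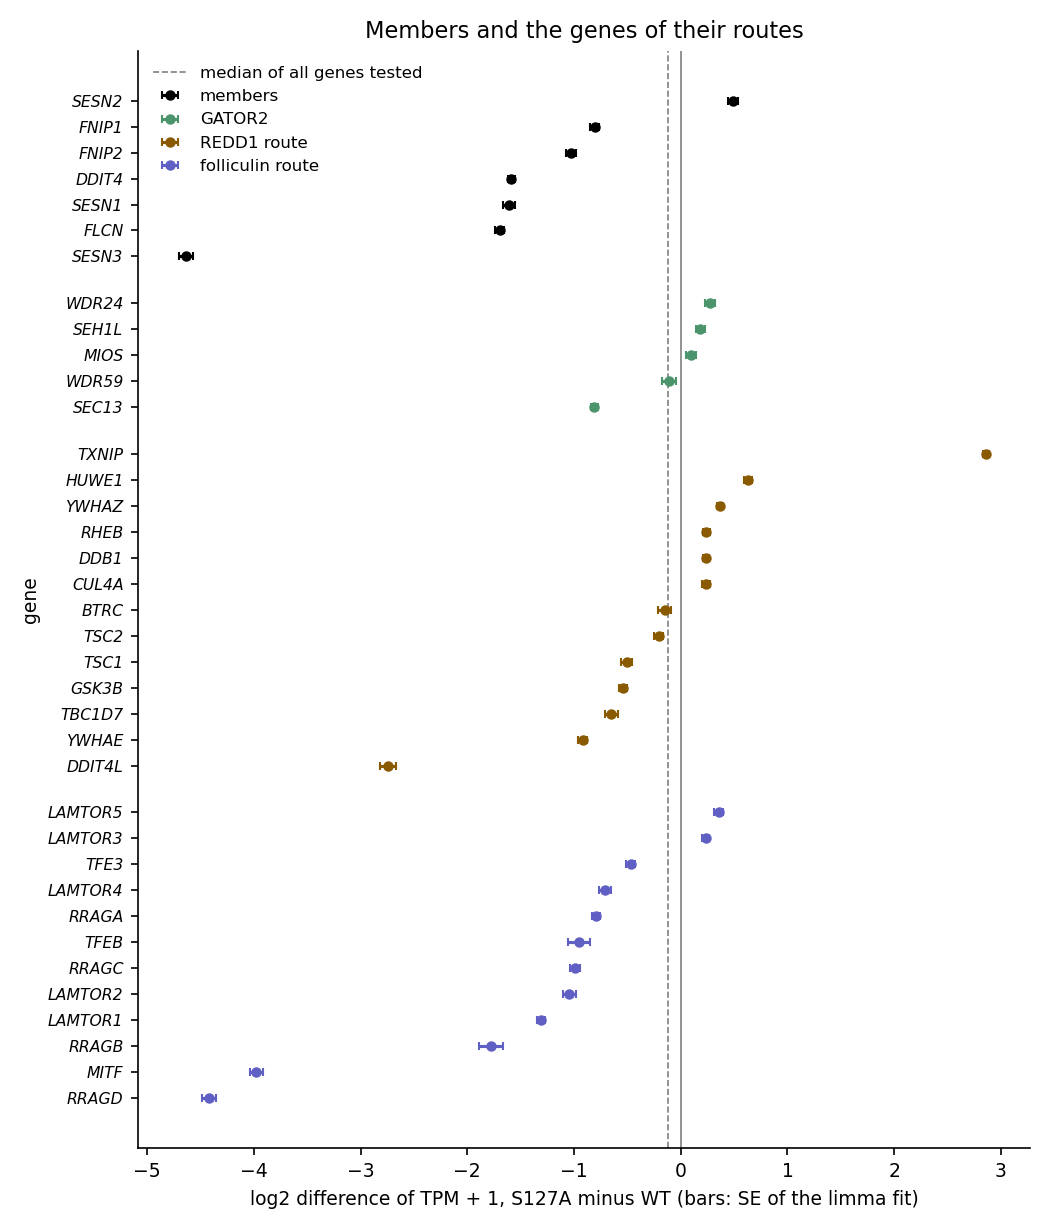
Difference of log2(TPM + 1), S127A minus WT (horizontal axis; bars are the SE of the limma fit), for the 7 genes (black) and the tested genes of GATOR2 (green), the REDD1 route (brown) and the folliculin route (violet). The solid line marks 0 and the dashed line the median of all genes tested, −0.12. SESN3, RRAGD and MITF lie furthest left, and TXNIP furthest right at 2.86.

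Known inducers of these 7 genes were compared through lists of their other targets, which are described here by counts and medians. Of all tested genes, 40.2% were called higher and 49.8% lower, with a median of −0.12. ATF4 and its targets were mostly higher, 20 of 25 tested against 3 lower, with a median of 0.83. SESN2 (0.49) lay on the same side as that list and DDIT4 (−1.59) on the other. ATF4 itself rose from 554 ± 26.6 to 993 ± 29 TPM, and was picked out once its values were known. ATF3, which fell from 40.9 ± 1.17 to 0.203 ± 0.0971 TPM, was a further member on the side of DDIT4, and PPP1R15A, a phosphatase subunit, rose from 25.8 ± 0.945 to 296 ± 6.01 TPM.

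Hypoxia-inducible factors and their targets were mostly lower, 17 of 21 tested against 4 higher, with a median of −0.87, on the side of DDIT4. ADM, the vasoactive peptide adrenomedullin, was at 21.84 to 25.96 TPM in WT and at 0.09, 0 and 0 TPM in S127A. BNIP3, a mitophagy receptor, fell from 167 ± 24.2 to 15.9 ± 0.653 TPM and the factor EPAS1 from 6.13 ± 0.437 to 0.0433 ± 0.00577 TPM. NDRG1 rose from 36.8 ± 1.95 to 253 ± 4.28 TPM. The glucocorticoid receptor and its targets were on the other side, with 9 of 11 tested higher, 2 not passing and a median of 1.21. The receptor NR3C1 rose from 19.4 ± 0.497 to 77.6 ± 0.746 TPM, the transcription factor KLF9 from 8.74 ± 0.312 to 42.4 ± 0.721 TPM and the EGFR inhibitor ERRFI1 from 13.6 ± 0.641 to 313 ± 5.95 TPM. The 2 that did not pass were PER1 (difference −0.07, adjusted p = 0.224 by limma) and DUSP1 (difference 0.01, adjusted p = 0.826 by limma), named after their values were seen.

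p53 and its targets had 8 of 20 tested higher, 11 lower and a median of −0.14. These lay near the 40.2% higher, the 49.8% lower and the median of all tested genes, so they do not set the list apart. The counts were 9 higher and 8 lower with TMM factors, and 9 and 7 with quantile normalization. The kinase PLK2 rose from 32.7 ± 0.71 to 418 ± 3.77 TPM, the receptor EPHA2 from 4.62 ± 0.35 to 279 ± 1.36 TPM, EDA2R from 0.373 ± 0.0987 to 56.5 ± 1.19 TPM and the death receptor FAS from 0.11 ± 0.128 to 19.6 ± 0.204 TPM. SESN1 and SESN2, both p53 targets, lay on opposite sides. FOXO factors and their targets had 11 of 21 tested higher, 9 lower and a median of 0.27. GADD45A rose from 54.3 ± 2.87 to 293 ± 7.51 TPM and the death effector BCL2L11 from 4.72 ± 0.41 to 47.2 ± 1.55 TPM, while PIK3IP1, an inhibitor of PI3 kinase, fell from 10.9 ± 0.56 to 0.493 ± 0.103 TPM. Of the factors, named after their values were seen, FOXO4 fell from 36.5 ± 0.307 to 13.8 ± 0.856 TPM and FOXO3 from 32.5 ± 1.11 to 17.7 ± 0.67 TPM. FOXO1 did not pass (difference −0.03, adjusted p = 0.702 by limma).

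Lysosomal targets of the MiT/TFE factors, a class that FLCN, FNIP1 and FNIP2 belong to, were mostly lower, 19 of 24 against 4 higher, with a median of −1.12. The 3 folliculin complex genes lay on the same side, between −0.81 and −1.70. GPNMB, a melanosome and lysosome glycoprotein, fell from 3335 ± 83.1 to 88.0 ± 1.85 TPM, the protease CTSD from 1159 ± 26.7 to 310 ± 4.52 TPM and HEXA, which encodes a subunit of lysosomal hexosaminidase, from 305 ± 5.64 to 86.6 ± 1.47 TPM. RRAGC and RRAGD stand in this list and in that of the folliculin route, and BNIP3 in those of FOXO and hypoxia.

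**Figure D4:**
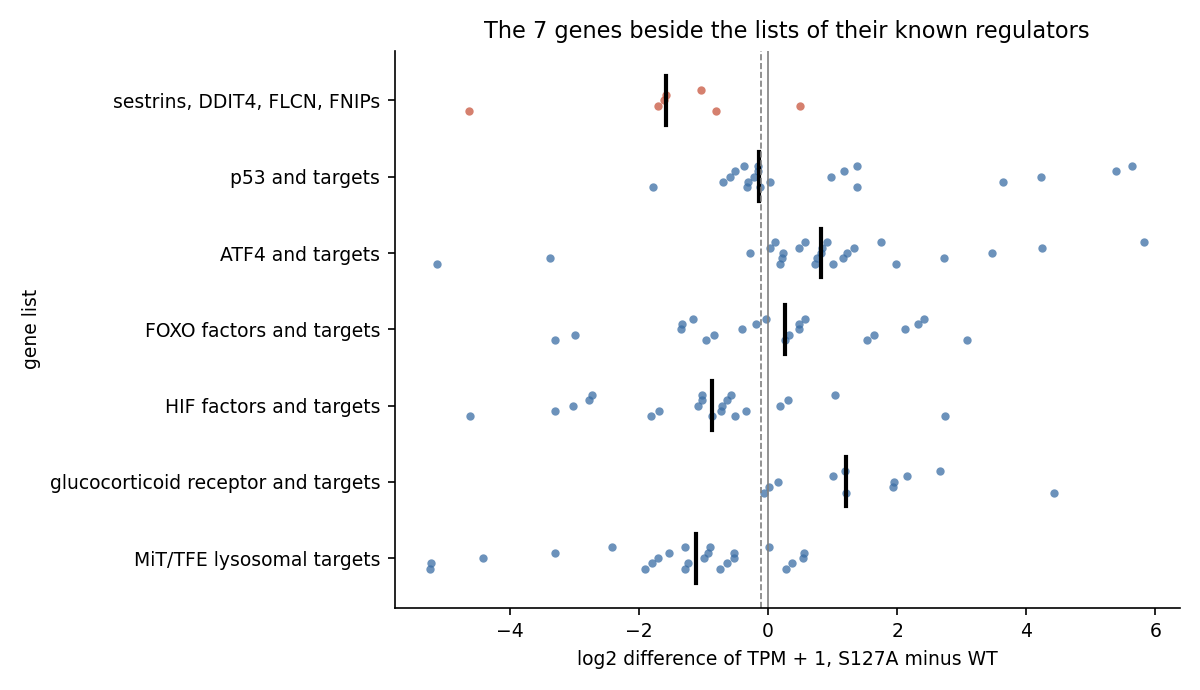
Difference of log2(TPM + 1), S127A minus WT (horizontal axis), for the 7 genes (red points, top row) and for the tested genes of 6 lists of known regulators and their targets (blue points), 1 point a gene, with a black bar at each median. The solid line marks 0 and the dashed line the median of all genes tested. Medians run from −1.12 (MiT/TFE lysosomal targets) to 1.21 (glucocorticoid receptor and targets).

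The genes whose profile over the 6 libraries was closest to each of the 7 were found by the Euclidean distance between log2(TPM + 1) values, each gene centred on its own mean. With 2 groups this likeness is mostly a likeness in the size of the group difference. For SESN3 the closest were BHLHB9 (distance 0.0901), PLXNB1 (0.109) and ALX1 (0.136), with 103 genes within a distance of 0.5. BHLHB9 averaged 24.5 ± 1.09 TPM over WT and 0.0567 ± 0.0231 TPM over S127A libraries, and ALX1, a homeobox factor, 24.4 ± 0.649 and 0.0333 ± 0.0289 TPM. PLXNB1 averaged 49.9 ± 1.37 and 1 ± 0.111 TPM, so its likeness to SESN3 rests on the added 1. For SESN2 they were SLC8B1 (0.0638), MYBL2 (0.0677) and C16orf70 (0.0687), and for SESN1 ATP6V1G1 (0.0444), RHOQ (0.0522) and KIF26A (0.0594). DDIT4 was closest to MVK (0.0474), FH (0.0621) and MED12L (0.0635). KIF26A (2.09 to 0 TPM, means of WT and S127A) and MED12L (2.64 to 0.237 TPM) were near the floor. Their likeness rests on the added 1 and is not one of fold change in TPM. FLCN was closest to ATP5O (0.0572), EIF2AK3 (0.0814) and NDUFB11 (0.083), FNIP1 to M6PR (0.0335), BCOR (0.0387) and MRPL14 (0.0403), and FNIP2 to MTHFD1L (0.0277), SRRT (0.0364) and SYMPK (0.041). No member was among the 3 closest of another. Within a distance of 0.5 lay 2256 genes for SESN2, 2210 for FNIP1, 1627 for FNIP2, 707 for DDIT4, 692 for SESN1 and 632 for FLCN, so a like profile is common for these genes.

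Relative to the median of all tested genes, which TMM factors move from −0.12 to −0.00 on the log2 scale, the differences were 0.61 for SESN2, −0.69 for FNIP1, −0.92 for FNIP2, −1.47 for DDIT4, −1.49 for SESN1, −1.58 for FLCN and −4.52 for SESN3. SESN1, DDIT4 and FLCN lay within 0.11 of each other. Their pairwise differences of log2(TPM + 1) overlapped between WT and S127A libraries, which held for these 3 pairs alone among the 21 pairs of the 7 genes. How close they lie depends on the pseudocount. In plain TPM, SESN1 kept 28.6% of its WT mean, FLCN 29.7% and DDIT4 32.8%. With a pseudocount of 5 the differences between groups were −1.14 for SESN1, −1.51 for DDIT4 and −1.52 for FLCN.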

How the data were processed

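Groups and replicate numbers came from the sample titles. Libraries were made by BGI from TRIzol-extracted total RNA with random hexamers, per the labels' protocols. Values are TPM in 1 table deposited by the authors, under upper-case symbols per the file headers. The submitters' processing notes name mm10; no source used here names the aligner, quantifier, annotation or strand setting. Columns summed to 862949 to 864529 TPM in WT and 830745 to 833332 TPM in S127A. TPM keeps no depth, so counting error is unknown, and errors are those between replicates.

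The test was limma 3.58.1 (R 4.3.3) on log2(TPM + 1) for genes averaging at least 1 TPM (trend, genotype as the only term, two-sided, Benjamini-Hochberg over 10348 genes, threshold 0.05). Sums, shares and ratios of TPM were compared by two-sided exact permutation tests (scipy 1.17.1). On simulated data of 9880 genes, the fit recovered 92% of 100 genes changed by 0.5 log2 and 100% of 99 changed by 1 log2. Of 200 calls, 9 were false. Few genes were changed in that setting, so it cannot show how the fit behaves where 90.0% of genes are called. Promoters are RefSeq's (GRCm38.p6), and 7 of 7 genes matched by symbol. Coordinates are from GENCODE M21.

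The 7 genes and the lists were chosen with earlier results of these data known. The naming rule took the 7 genes, any gene of GATOR2, of the REDD1 route and of the Rag, Ragulator and MiT/TFE list, up to 4 genes of each other list by adjusted p, and the 3 genes most like each of the 7. Alternatives were pseudocounts of 0.1 and 5, no filter or a mean of at least 5 TPM, TMM factors (a trimmed mean of log ratios) computed on TPM, quantile normalization, a common total, no trend, robust hyperparameters, array weights, a replicate block, identical symbols counted once, and leaving out each library.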

Additional observations from a re-analysis of the deposited data

How the results depend on the processing

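All 7 genes kept their direction and their call under the 18 alternatives of the fit. Differences ran from 0.44 to 0.61 for SESN2, −1.78 to −1.14 for SESN1, −7.71 to −2.55 for SESN3, −1.61 to −1.47 for DDIT4, −1.75 to −1.52 for FLCN, −0.83 to −0.69 for FNIP1 and −1.08 to −0.87 for FNIP2. The count over all genes ran from 8159 of 9053 tested (mean of at least 5 TPM) to 10593 of 14385 tested (no filter), a smaller share. It ran from 9123 to 9211 without 1 library. Without 1 library, the difference between groups (S127A minus WT) ran from 33.6 to 35.2 percentage points for the SESN2 share, from −24.0 to −23.3 for the SESN3 share and from 3.59 to 4.53 for the FNIP1 share. It ran from −0.389 to −0.370 for the FLCN ratio and from −12.7 to −8.57 for summed sestrin TPM (exact permutation p = 0.2 each, the smallest for 2 against 3).

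The replicate numbers did not pair the samples: deviations of same-numbered libraries correlated at 0.117, 0.0174 and 0.0279, and WT replicates 2 and 3 correlated better with another number. With a replicate block 9339 genes were called instead of 9315, and all 7 genes among them. An exact sign-flip test within replicate numbers gave p = 0.25, the smallest for 3 pairs, for each measure it was run on. These were summed sestrin TPM, the SESN2, SESN3 and FNIP1 shares and the FLCN ratio. Unknown depth limits most the values near 0, such as SESN3 in S127A.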

Other observations

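The list of AMPK, GABARAP, C9orf72-complex and HSP90 genes, whose proteins bind the folliculin complex or are related to it, had 5 of 14 tested higher and 8 lower, with a median difference of −0.22. Over all tested genes 40.2% were higher and 49.8% lower, so these counts set the list apart in neither direction. AMPK is an energy-sensing kinase of catalytic, beta and gamma subunits. The catalytic subunit PRKAA2 was at 8.32 to 9.09 TPM in WT and at 0, 0.03 and 0 TPM in S127A, whereas the other catalytic subunit PRKAA1 rose from 45.8 ± 0.302 to 54.2 ± 0.598 TPM. PRKAB1 rose from 33.7 ± 1.21 to 69.5 ± 2.35 TPM and PRKAB2 from 4.27 ± 0.0764 to 12.3 ± 0.0814 TPM, while of the gamma subunits PRKAG1 rose from 85.3 ± 2.15 to 105.4 ± 5.95 TPM and PRKAG2 fell from 24.0 ± 1.99 to 10.1 ± 0.777 TPM. PRKAA1, PRKAB2, PRKAG1 and PRKAG2 were picked out once their values were known. HSP90AA1, a chaperone on which FNIP proteins act, fell from 1832 ± 59.1 to 839 ± 29.6 TPM and its co-chaperone AHSA1 from 368 ± 6.4 to 168 ± 6.32 TPM. The paralogue HSP90AB1, more abundant in both groups, fell less, from 3241 ± 113 to 2853 ± 23 TPM (difference −0.18). Scaled by TMM factors, HSP90AB1 stayed above the threshold, at an adjusted p of 0.096 by limma. HSP90AB1 was named after its values were seen.

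Sestrins also have a redox role beside peroxiredoxins and the KEAP1 and NRF2 route. Of 15 genes of this list 8 were higher, 6 lower and 1 did not pass, with a median difference of 0.14. The shares over all tested genes were 40.2% higher and 49.8% lower. PRDX1 fell from 1220 ± 37.7 to 419 ± 18 TPM, while PRDX5 rose from 76.4 ± 2.77 to 369 ± 6.01 TPM and PRDX6 from 230 ± 8.46 to 454 ± 10.5 TPM. GCLM, a subunit of the enzyme of glutathione synthesis, rose from 34.2 ± 1.05 to 85.1 ± 3.55 TPM.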
